A study of Mus musculus with 14 samples.

Results

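Ribosome biogenesis factors are the proteins that make, modify and cut ribosomal RNA and assemble it with ribosomal proteins, without staying in the finished ribosome. The 53 genes described here are a list of symbols, matched to the array with no threshold on a measured change. The list was chosen with earlier results of these data known, so its shares beside those of all genes are a description. Of the 53 genes, 51 had a probe set whose array annotation gave that symbol alone, and they are set among the 19938 genes tested. Where a gene had several such probe sets the brightest was used. Whether a probe set lies at the gene it names was not checked. Noc2l was not in the annotation used here, and Ppan lay only on a probe set shared with another symbol.

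Male C57BL/6J mice aged 5 months gave plantaris RNA on days 0, 1, 3, 5, 7, 10 and 14 of overload by synergist ablation. In this operation the muscles that share the work of the plantaris are removed or cut, so that the plantaris carries the load and grows. Each of the 7 days had 2 arrays (Affymetrix Mouse Gene 1.0 ST), with the right muscles of 6 animals pooled on the first and left muscles pooled on the second. No sham-operated group is named in the labels, so every change against day 0 holds operation, wound and load together. Whether a right and a left pool share their 6 animals is not stated. P-values here measure the spread between pools and not between mice.

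Ribosome production starts in the nucleolus, where RNA polymerase I copies the ribosomal DNA into 1 long precursor. Small nucleolar ribonucleoprotein particles (snoRNPs) modify this RNA: box C/D particles add methyl groups to the ribose, and box H/ACA particles turn uridine into pseudouridine. The small subunit processome then cuts out and folds the RNA of the small subunit, while a separate chain of factors assembles the large subunit. In skeletal muscle, growth under load is known to involve more ribosomes per fibre, and inflammatory and dividing cells also make ribosomes at a high rate.

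Values are log2 of the deposited intensity, and a change is a difference of day means on that scale given ± its standard error (SE). A gene was called when limma's test gave a Benjamini-Hochberg adjusted p under 0.05 over all 19938 genes. The 51 members lay between 7.58 and 11.41 on day 0, with a median of 9.43, against 8.29 for all genes. Right and left pools of a day differed in a member by 0.08 at the median and by 0.59 at most (Rrs1 on day 3). The side of the muscle gave 0 calls among the members by limma, with 2 at an unadjusted p under 0.05.

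Cell type markers moved over the same days. The summed intensity of 8 muscle fibre markers was 130068 and 130926 on day 0, 109879 and 114941 on day 1, 85578 and 86996 on day 3, 94017 and 76434 on day 5, 77358 and 83754 on day 7, 112420 and 111061 on day 10 and 122831 and 123874 on day 14 (right and left pool). The sum of 10 macrophage and monocyte markers was 3113 and 2844 on day 0, 21740 and 23386 on day 1, 28330 and 28618 on day 3, 23658 and 25558 on day 5, 22996 and 22106 on day 7, 14484 and 15116 on day 10 and 9834 and 10302 on day 14, and all 10 were called higher on each of the 6 days after day 0. The sum of 7 markers of dividing cells was 2305 and 1403 on day 0, 2981 and 1863 on day 1, 10488 and 11150 on day 3, 10673 and 13709 on day 5, 13495 and 11693 on day 7, 5042 and 5165 on day 10 and 3513 and 3887 on day 14. Fibre markers were low and the sum of dividing cell markers high on days 3 to 7. The sum of macrophage markers was high from day 1 to day 7, with day 1 (21740 and 23386) near day 7 (22996 and 22106). The sum of 8 neutrophil markers was 7199 and 3288 on day 0, 17166 and 21537 on day 1, 4887 and 8446 on day 3, 3108 and 2216 on day 5, 1950 and 2928 on day 7, 1642 and 1791 on day 10 and 2085 and 4460 on day 14, highest in both pools of day 1, where 5 of 8 were called higher. The sum of 6 satellite cell and myoblast markers was 3245 and 3248 on day 0, 3565 and 3492 on day 1, 7257 and 6874 on day 3, 9450 and 13064 on day 5, 11946 and 10766 on day 7, 8685 and 8665 on day 10 and 5346 and 5242 on day 14, and all 6 were higher on days 5 and 7. Markers of fibro-adipogenic progenitors (5 genes) summed to 19459 and 18428 on day 0, 16641 and 15528 on day 1, 24984 and 23870 on day 3, 31969 and 31240 on day 5, 35494 and 36350 on day 7, 38286 and 40089 on day 10 and 40437 and 41860 on day 14. No marker was at 0 on any array. The part of these cells in the members' changes was not tested, and in whole muscle a different number of cells and a different amount of RNA per cell cannot be told apart.

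A pair of pools stood apart. The sum of 9 hepatocyte markers was 60036 (right) and 22568 (left) on day 1, against 16161 (right) and 56888 (left) on day 0, and it lay between 4042 and 33286 in the pools of the other days. Without the day 0 left pool and the day 1 right pool, members called higher against day 0 numbered 35 on day 1, 32 on day 3, 24 on day 5, 23 on day 7, 3 on day 10 and 2 on day 14. Members called lower then numbered 1, 0, 5, 6, 19 and 12 on the same days. The 6 calls lost on day 1 were Bop1, Dkc1, Nob1, Rrp12, Rrp9 and Ubtf, with adjusted p-values between 0.115 and 0.264 and with all arrays changes between 0.21 and 0.39.

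Most of the factors rose within 1 day of overload, and few were higher on days 10 and 14. A set of 26 of the 51 was higher on each of days 1, 3, 5 and 7. How many of all genes were higher on each of these days was not counted, so the 26 stand without a background. At day 1, 41 of the 51 members were higher than on day 0, against 20.3% of all genes, and Nop10 alone was lower, against 34.7% of all genes. At day 3, 37 members were higher (24.2% of all genes) and 0 lower (23.4% of all genes), with 2 lower at an unadjusted p under 0.05 by limma. At day 5, 28 were higher and 6 lower, against 27.0% and 38.1% of all genes. At day 7, 29 were higher and 7 lower, against 28.5% and 37.8% of all genes.

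On days 10 and 14 fewer members were higher and more were lower than on days 1 to 7. At day 10 the members held 5 higher and 18 lower, against 23.6% and 27.5% of all genes. At day 14 they held 6 higher and 15 lower, against 21.4% and 20.7% of all genes. The shares called lower were 35.3% on day 10 and 29.4% on day 14. They were closer to those of all genes than the shares called higher on days 1 and 3, and are no result about the list. The F test over the 6 days called all 51 members, against 71.3% of all genes. Leaving out a single array, 49 to 51 members were called.

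The median change of the 51 members was 0.61 on day 1, 0.49 on day 3, 0.28 on day 5, 0.31 on day 7, -0.07 on day 10 and -0.05 on day 14. The median of all genes was -0.14, -0.07, -0.16, -0.15, -0.11 and -0.08 on the same days. Without the dimmest genes the all-gene median was -0.11, -0.0027, 0.013, 0.026, -0.0097 and 0.0029, so its sign on days 5, 7 and 14 hung on that filter. Changes over 2-fold upwards were seen in 9 members on day 1, 3 on day 3, 2 on day 5 and 2 on day 7. A change over 2-fold downwards was seen in Rrs1 on day 14. The 9 of day 1 were Nop58, Gnl3, Ddx21, Npm1, Tsr1, Ddx10, Utp15, Noc3l and Heatr1.

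Some of these counts hung on scaling or on single pools. With quantile normalization 25 members were higher and 13 lower at day 7, and 3 were higher and 21 lower at day 14. Of all 19938 genes, that scaling called 5202 higher and 7650 lower at day 7, and 4101 higher and 4752 lower at day 14. With equal array medians 3 were higher and 17 lower at day 14, against 3960 and 5238 of all 19938 genes. The 6 lower calls of day 5 became 3 without either pool of day 5. The 7 lower calls of day 7 became 3 without the day 7 left pool and 4 without the day 0 right pool. The 5 higher calls of day 10 became 2 without the day 10 right pool, and 3 without the day 10 left pool or the day 0 left pool. The 6 higher calls of day 14 became 2 without the day 14 left pool or the day 0 left pool, and the 15 lower calls became 8 without the day 0 right pool and 9 without the day 14 right pool. Without the day 3 left pool, 1 member was called lower on day 3.

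**Figure D1:**
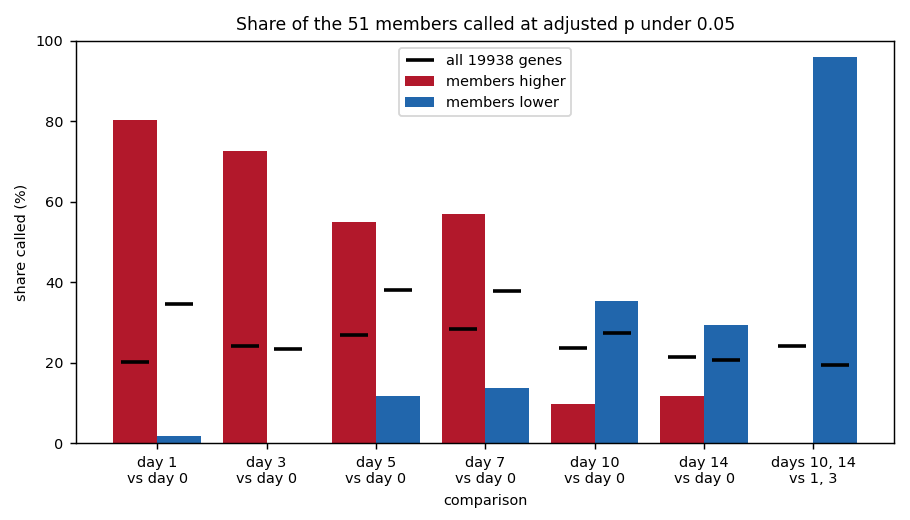
Share of the 51 ribosome biogenesis factors called higher (red) or lower (blue) in 7 comparisons, in percent, with the share of all 19938 genes as a black line at the place of each bar. The bars for higher calls stand at 41 of 51 genes on day 1 and at 5 of 51 on day 10, and in the comparison of days 10 and 14 with days 1 and 3 the bar for lower calls holds 49 of 51 genes.

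**Figure D2:**
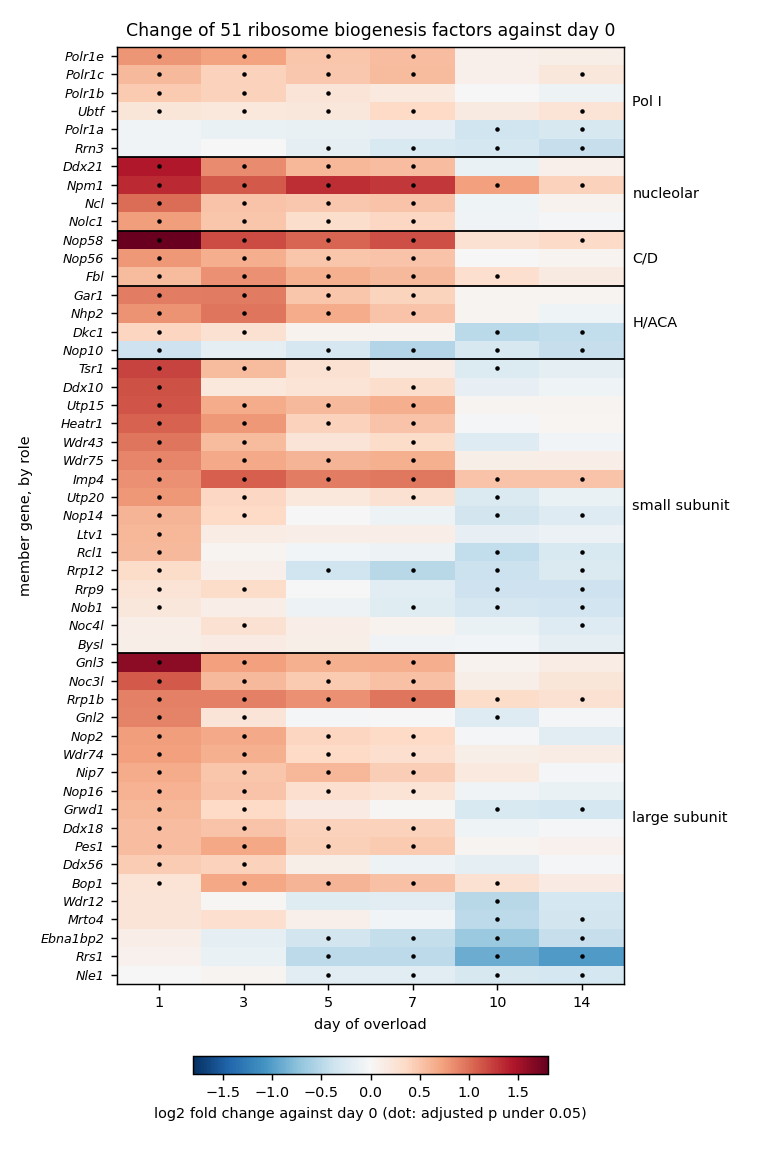
Log2 fold change against day 0 of each of the 51 genes (rows, ordered by role and then by the change at day 1) on days 1 to 14 (columns). Red is higher and blue lower than day 0, and a dot marks an adjusted p under 0.05. Red with a dot fills most of days 1 and 3, and blue with a dot appears from day 5 on in Rrn3, Rrp12, Ebna1bp2, Rrs1 and Nle1 and already on day 1 in Nop10.

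The bases before the transcription start are shown for 4 members, from RefSeq on GRCm38.p6, because they stand for the ends of the pattern: Nop58 had the largest rise, Nop10 the only fall at day 1, Imp4 a rise on all 6 days, and Nop2 a rise together with both motifs searched. Capitals mark CACGTG, the E-box that Myc and Max bind, and CCGGAAG, the core of sites of ETS family factors, or its reverse complement CTTCCGG. Both strands were searched, and no marked sites overlap in the stretches below.
Nop58, chr1:59684756-59684960, plus strand: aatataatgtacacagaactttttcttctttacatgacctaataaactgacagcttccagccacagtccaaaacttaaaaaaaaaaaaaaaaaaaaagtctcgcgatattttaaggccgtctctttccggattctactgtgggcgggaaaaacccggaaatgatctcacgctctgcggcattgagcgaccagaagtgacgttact
Nop10, chr2:112261676-112261925, plus strand: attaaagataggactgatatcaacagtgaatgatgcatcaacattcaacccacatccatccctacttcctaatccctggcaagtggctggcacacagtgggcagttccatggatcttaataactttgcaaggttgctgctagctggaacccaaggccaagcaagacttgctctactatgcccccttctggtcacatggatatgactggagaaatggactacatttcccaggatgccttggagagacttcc
Imp4, chr1:34439579-34439828, plus strand: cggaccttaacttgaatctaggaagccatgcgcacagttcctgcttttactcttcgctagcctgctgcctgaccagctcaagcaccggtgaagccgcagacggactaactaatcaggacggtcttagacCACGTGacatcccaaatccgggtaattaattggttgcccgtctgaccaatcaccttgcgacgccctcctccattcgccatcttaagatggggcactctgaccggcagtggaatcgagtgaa
Nop2, chr6:125131633-125131882, plus strand: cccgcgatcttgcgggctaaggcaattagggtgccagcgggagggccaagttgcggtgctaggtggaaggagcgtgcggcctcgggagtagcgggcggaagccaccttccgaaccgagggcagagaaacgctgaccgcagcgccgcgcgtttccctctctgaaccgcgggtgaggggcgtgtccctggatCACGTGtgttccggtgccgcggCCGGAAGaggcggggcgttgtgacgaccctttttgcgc

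Of the 4 stretches, that of Nop2 holds both motifs, that of Imp4 the E-box only, and those of Nop58 and Nop10 neither, which says nothing of factors bound elsewhere. The stretch of Nop58 has 205 bases and each of the others 250, as only bases before the annotated start of the gene are shown.

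In the windows from 250 bases before to 50 bases after the start, 45 members had an entry in the RefSeq table and 10 of them (22.2%) held CACGTG in at least 1 window, as did 8.09% of 27025 genes. CCGGAAG was found in 16 of the 45 members (35.6%) and in 9.93% of all genes. These shares are a description, and no test was made. The 10 members with the E-box are Grwd1, Imp4, Ltv1, Nle1, Nop2, Pes1, Rrn3, Tsr1, Utp20 and Wdr43. Of these, 8 were higher at day 1 (median change 0.68), and of the 35 without it 28 were higher (median change 0.63). Rrn3 and Nle1, which hold it, had changes of -0.06 and 0.00 on that day and were not called. The letters around each E-box, shown because they are the sites counted here, are:
Grwd1, chr7:45830740-45830767, minus strand, first base of the E-box at position 35 from the start: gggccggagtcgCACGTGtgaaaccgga
Imp4, chr1:34439696-34439725, plus strand, first base of the E-box at position -121 from the start: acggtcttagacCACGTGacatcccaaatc
Ltv1, chr10:13193092-13193121, minus strand, first base of the E-box at position 29 from the start: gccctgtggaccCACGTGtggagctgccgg
Nle1, chr11:82908355-82908384, minus strand, first base of the E-box at position 24 from the start: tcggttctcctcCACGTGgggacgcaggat
Nop2, chr6:125131811-125131840, plus strand, first base of the E-box at position -60 from the start: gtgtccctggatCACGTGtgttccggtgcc
Pes1, chr11:3963965-3963994, plus strand, first base of the E-box at position 3 from the start: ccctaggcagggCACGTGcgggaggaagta
Rrn3, chr16:13780472-13780501, plus strand, first base of the E-box at position -215 from the start: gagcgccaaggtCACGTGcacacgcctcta
Rrn3, chr16:13780639-13780668, plus strand, first base of the E-box at position -48 from the start: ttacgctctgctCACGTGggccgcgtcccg
Tsr1, chr11:74898092-74898121, plus strand, first base of the E-box at position 25 from the start: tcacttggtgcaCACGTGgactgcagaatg
Utp20, chr10:88826765-88826789, minus strand, first base of the E-box at position 38 from the start: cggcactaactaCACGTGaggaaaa
Wdr43, chr17:71616220-71616249, plus strand, first base of the E-box at position 18 from the start: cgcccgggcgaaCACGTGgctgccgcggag

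Positions count from the start that each window was built on, which was the annotated start of the gene in 31 of 53 member windows. Sites with a position above 0 lie in the transcript from that start, and 7 of the 10 genes have theirs there, 3 to 38 bases from it. A match of letters is no evidence that a factor binds.

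RNA polymerase I and its factors had the smallest median change of the 6 roles on days 1 and 3. Over the 6 genes it was 0.34 on day 1 and 0.30 on day 3. On both days 4 of 6 were higher (66.7%), against 20.3% and 24.2% of all genes. Polr1e, a subunit found in polymerase I only, led on both days, with a change of 0.79 ± 0.12 (adjusted p = 0.00018) on day 1 and 0.73 ± 0.12 (adjusted p = 0.00033) on day 3. Polr1e measured 8.17 and 8.13 on day 0, 8.98 and 8.91 on day 1, 8.89 and 8.87 on day 3, 8.56 and 8.74 on day 5, 8.80 and 8.62 on day 7, 8.43 and 8.05 on day 10 and 8.19 and 8.31 on day 14. Its pools lay above those of day 0 on every later day except day 10.

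Polr1c, a subunit shared with polymerase III, was higher by 0.58 ± 0.07 (adjusted p = 3.2e-05) on day 1 and by 0.57 ± 0.07 (adjusted p = 2.8e-05) on day 7. Polr1b, the second-largest subunit, rose by 0.47 ± 0.09 (adjusted p = 0.00094) on day 1 and was not called from day 7 on. Ubtf, which binds ribosomal DNA and opens it for the polymerase, rose by 0.21 ± 0.07 (adjusted p = 0.019) on day 1 and 0.36 ± 0.07 (adjusted p = 0.00074) on day 7.

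The largest subunit and the initiation factor were called higher on no day. Polr1a, which with Polr1b forms the active site, measured 10.25 and 10.17 on day 0, 10.13 and 10.16 on day 1, 10.10 and 10.07 on day 3, 10.04 and 10.12 on day 5, 10.10 and 10.02 on day 7, 9.92 and 9.77 on day 10 and 9.86 and 9.96 on day 14. Its pools were below those of day 0 on all 6 days, and it was called lower, at -0.36 ± 0.08 (adjusted p = 0.0023) on day 10 and -0.29 ± 0.08 (adjusted p = 0.0094) on day 14. Rrn3, the factor that ties the polymerase to the promoter and is switched by growth signals, measured 11.18 and 11.06 on day 0, 11.07 and 11.05 on day 1, 11.05 and 11.17 on day 3, 10.92 and 10.96 on day 5, 10.89 and 10.80 on day 7, 10.80 and 10.82 on day 10 and 10.73 and 10.69 on day 14. From day 5 on all its pools lay under both day 0 pools, and it was lower, at -0.27 ± 0.07 (adjusted p = 0.0070) on day 7 and -0.41 ± 0.07 (adjusted p = 0.00093) on day 14.

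Several of these small changes were not called when a pool was left out. Ubtf lost its call of day 1 without the day 0 left pool or either day 1 pool (adjusted p up to 0.146), of day 3 without the day 0 left pool, either day 3 pool or either day 10 pool (adjusted p up to 0.237), of day 5 without the day 0 left pool or the day 5 left pool (adjusted p up to 0.139) and of day 14 without the day 0 left pool or the day 14 left pool (adjusted p up to 0.0951). The day 5 call of Polr1b was lost without the day 0 left pool or the day 5 left pool (adjusted p up to 0.249). Polr1c lost that of day 14 without either day 0 pool, either day 10 pool or the day 14 left pool (adjusted p up to 0.245), and Polr1a its own without the day 0 right pool or the day 14 right pool (adjusted p up to 0.0666). Rrn3 lost day 7 without the day 0 right pool or the day 7 left pool (adjusted p up to 0.0597). Its day 5 call was lost without the day 0 right pool, either day 1 pool, either day 5 pool, either day 10 pool or either day 14 pool (adjusted p up to 0.255).

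The 4 abundant nucleolar proteins with several tasks had the largest median change of the 6 roles on day 1, 1.17, and all 4 were higher on days 1, 3, 5 and 7. Of all genes 20.3%, 24.2%, 27.0% and 28.5% were higher on these days. Ddx21, an RNA helicase that works on both polymerase I transcription and snoRNAs, led day 1 with 1.44 ± 0.09 (adjusted p = 2.2e-07). Ddx21 measured 10.25 and 10.03 on day 0, 11.61 and 11.54 on day 1, 10.98 and 10.99 on day 3, 10.68 and 10.79 on day 5, 10.77 and 10.62 on day 7, 10.07 and 9.96 on day 10 and 10.20 and 10.26 on day 14. Both day 1 pools stood over 1 unit above both day 0 pools, and on days 10 and 14 the gene was back among the day 0 values.

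Npm1, nucleophosmin, a chaperone of histones and ribosomal proteins with many processed pseudogenes in the genome, was 1 of 3 members higher on every day. Npm1 measured 9.82 and 9.85 on day 0, 11.03 and 11.33 on day 1, 10.88 and 10.99 on day 3, 11.25 and 11.09 on day 5, 11.15 and 11.08 on day 7, 10.63 and 10.53 on day 10 and 10.32 and 10.19 on day 14. Npm1 was higher by 1.35 ± 0.10 (adjusted p = 1.0e-06) on day 1, 1.28 ± 0.10 (adjusted p = 1.0e-06) on day 7 and 0.42 ± 0.10 (adjusted p = 0.0071) on day 14, and its pools lay above both day 0 pools throughout. Ncl, nucleolin, rose by 1.00 ± 0.08 (adjusted p = 1.1e-06) on day 1, and Nolc1, which escorts snoRNPs between nucleolus and Cajal body, by 0.76 ± 0.09 (adjusted p = 2.3e-05). The day 14 call of Npm1 was lost without the day 14 right pool (adjusted p 0.0534), and the day 5 call of Nolc1 without the day 5 left pool (adjusted p 0.0773).

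**Figure D3:**
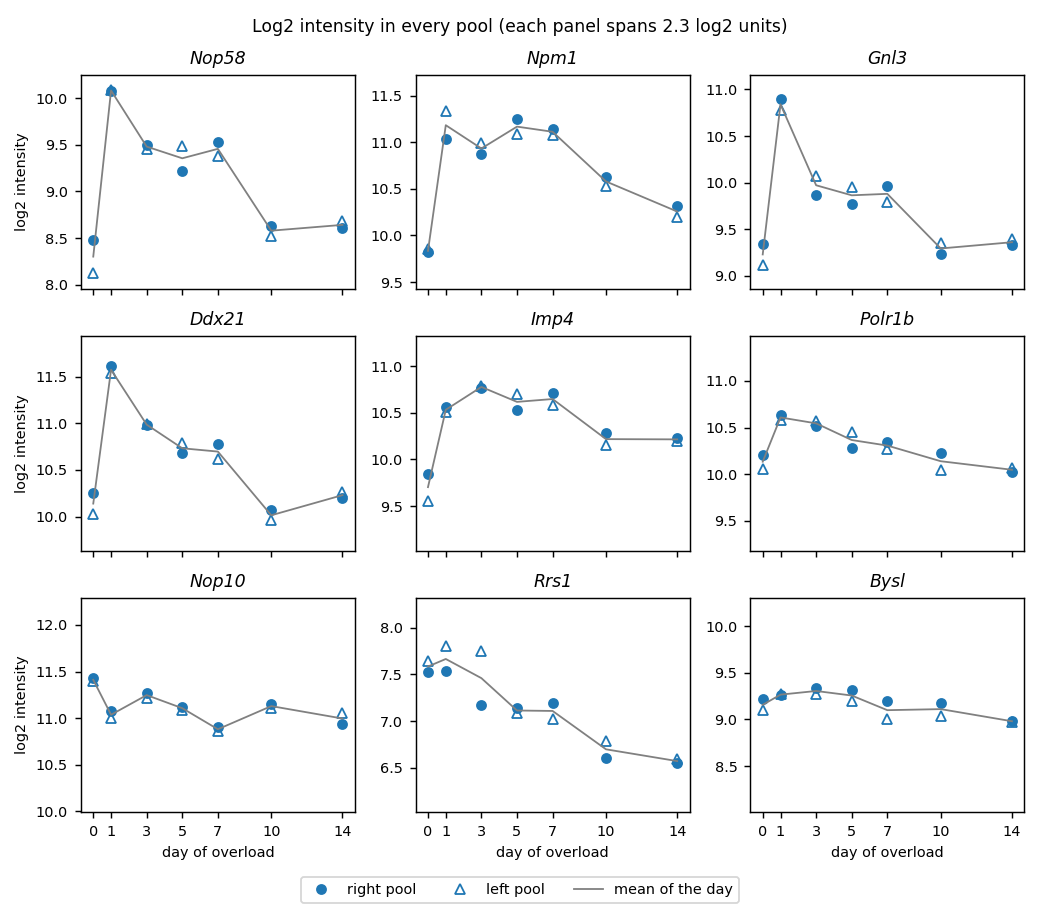
Log2 intensity of 9 members in each of the 14 pools against the day of overload. Filled circles are right pools, open triangles left pools, and the grey line joins the day means. Nop58, Gnl3 and Ddx21 peak on day 1, Npm1 and Imp4 stay above day 0 up to day 14, Nop10 lies under day 0 on all later days, and Rrs1 declines to 6.55 and 6.59 on day 14.

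The 3 core proteins of the box C/D particle on the list, Nop58, Nop56 and Fbl, rose on days 1, 3, 5 and 7, with a median change of 0.78 on day 1 and 0.82 on day 3. The shares of all genes called higher on those days were 20.3%, 24.2%, 27.0% and 28.5%. Nop58, which forms the scaffold of the particle with Nop56, had the largest rise of any member, 1.78 ± 0.12 (adjusted p = 3.7e-07) on day 1, or 3.44-fold. Nop58 measured 8.48 and 8.12 on day 0, 10.08 and 10.08 on day 1, 9.50 and 9.46 on day 3, 9.22 and 9.49 on day 5, 9.53 and 9.38 on day 7, 8.63 and 8.53 on day 10 and 8.60 and 8.68 on day 14. The pools of days 1 to 7 lay at least 0.7 units above the day 0 pools, and those of days 10 and 14 were higher by 0.05 or more. Its change was 1.18 ± 0.12 (adjusted p = 7.7e-06) on day 3, 1.16 ± 0.12 (adjusted p = 7.5e-06) on day 7 and 0.34 ± 0.12 (adjusted p = 0.041) on day 14. The last of these calls was lost without the day 0 left pool, either day 3 pool, either day 10 pool or either day 14 pool (adjusted p up to 0.323).

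Nop56 rose by 0.78 ± 0.09 (adjusted p = 3.4e-05) on day 1 and 0.66 ± 0.09 (adjusted p = 0.00011) on day 3. Fbl, fibrillarin, the methyltransferase of the particle, was higher on day 3 than on day 1. It rose by 0.57 ± 0.08 (adjusted p = 9.6e-05) on day 1 and 0.82 ± 0.08 (adjusted p = 5.0e-06) on day 3, and its step from day 1 to day 3 was 0.25 ± 0.08 (adjusted p = 0.030). Fbl was also higher on day 10 by 0.31 ± 0.08 (adjusted p = 0.0073), a call lost without the day 10 right pool (adjusted p 0.081). A dimmer Fbl probe set changed by 0.44 on day 1 and 0.85 on day 3.

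Of the 4 proteins of the box H/ACA particle, 3 rose and 1 fell on day 1, against 20.3% and 34.7% of all genes. Gar1 and Nhp2, both small core proteins that bind the guide RNA or the synthase, rose by 0.92 ± 0.13 (adjusted p = 0.00012) and 0.81 ± 0.11 (adjusted p = 5.9e-05) on day 1. On day 3 they were higher by 0.94 ± 0.13 (adjusted p = 9.5e-05) and 0.96 ± 0.11 (adjusted p = 1.4e-05). Gar1 measured 9.71 and 9.37 on day 0, 10.55 and 10.37 on day 1, 10.45 and 10.51 on day 3, 10.000 and 10.07 on day 5, 10.04 and 9.83 on day 7, 9.72 and 9.46 on day 10 and 9.67 and 9.51 on day 14. Nhp2 measured 8.36 and 8.24 on day 0, 9.17 and 9.06 on day 1, 9.22 and 9.32 on day 3, 8.85 and 9.09 on day 5, 8.92 and 8.72 on day 7, 8.29 and 8.40 on day 10 and 8.15 and 8.30 on day 14. For both genes the pools of days 1 to 7 lay above both day 0 pools, and those of days 10 and 14 overlapped them. The calls of Gar1 were lost on day 5 without the day 0 left pool (adjusted p 0.0696) and on day 7 without the day 0 left pool or the day 7 right pool (adjusted p up to 0.191).

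Dkc1, dyskerin, the pseudouridine synthase itself, was higher early and lower late. Dkc1 measured 9.28 and 9.20 on day 0, 9.68 and 9.58 on day 1, 9.48 and 9.55 on day 3, 9.24 and 9.36 on day 5, 9.42 and 9.19 on day 7, 8.80 and 8.70 on day 10 and 8.70 and 8.89 on day 14. Dkc1 was higher by 0.39 ± 0.10 (adjusted p = 0.0062) on day 1, and lower, at -0.49 ± 0.10 (adjusted p = 0.0016) on day 10 and -0.45 ± 0.10 (adjusted p = 0.0038) on day 14, with no overlap with day 0 on these 3 days. Its day 3 call was lost without either day 0 pool or either day 3 pool (adjusted p up to 0.167).

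Nop10, the smallest core protein of the same particle, moved the other way. Nop10 measured 11.43 and 11.40 on day 0, 11.07 and 11.001 on day 1, 11.27 and 11.22 on day 3, 11.12 and 11.09 on day 5, 10.90 and 10.86 on day 7, 11.15 and 11.11 on day 10 and 10.94 and 11.05 on day 14. Its pools lay under both day 0 pools on all 6 days. It was lower, at -0.37 ± 0.07 (adjusted p = 0.00070) on day 1 and -0.53 ± 0.07 (adjusted p = 4.0e-05) on day 7, was not called on day 3, and was the only member called higher on day 10 than on day 7, by 0.25 ± 0.07 (adjusted p = 0.029). That last call was lost whichever of the 4 pools of days 7 and 10 was left out.

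**Figure D4:**
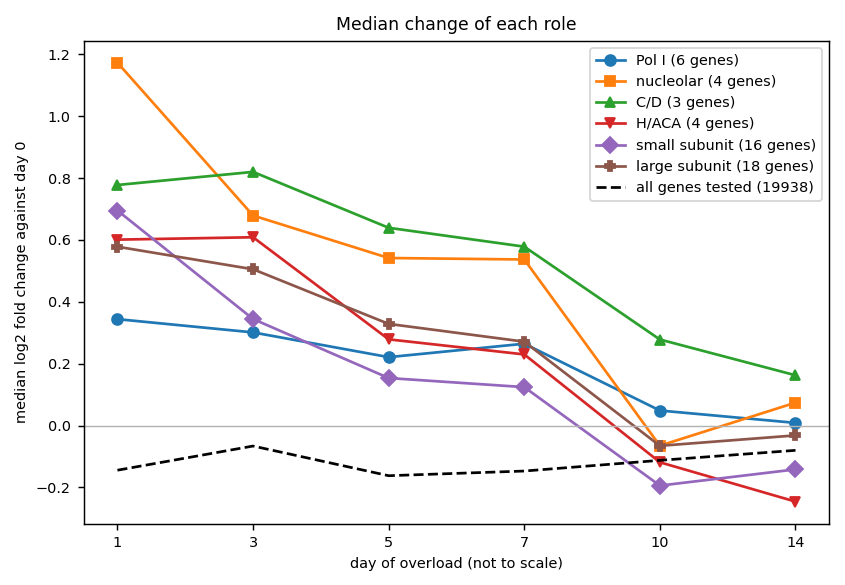
Median log2 fold change against day 0 of each of the 6 roles (symbols) and of all 19938 genes (dashed line) on days 1 to 14. The 4 nucleolar proteins start highest at 1.17 on day 1, the 6 polymerase I genes start lowest at 0.34, and on day 10 the medians of the roles lie between -0.19 and 0.28.

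The small subunit factors were high on day 1 and fewer of them were higher on day 3. Of the 16 genes 14 were higher on day 1, 10 on day 3, 5 on day 5, 7 on day 7 and 1 on each of days 10 and 14. The shares higher were 87.5%, 62.5%, 31.2%, 43.8%, 6.25% and 6.25%, against 20.3%, 24.2%, 27.0%, 28.5%, 23.6% and 21.4% of all genes. The day 5 share lay near that of all genes and is no result about the list. Lower calls numbered 7 on day 10 and 6 on day 14 (43.8% and 37.5%), against 27.5% and 20.7% of all genes. The median change was 0.70 on day 1, 0.34 on day 3 and -0.19 on day 10.

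Tsr1, a late factor related to translation GTPases, led day 1 with 1.22 ± 0.09 (adjusted p = 5.4e-07). Tsr1 measured 9.77 and 9.53 on day 0, 10.93 and 10.81 on day 1, 10.18 and 10.26 on day 3, 9.89 and 9.96 on day 5, 9.82 and 9.73 on day 7, 9.41 and 9.39 on day 10 and 9.49 and 9.48 on day 14. Tsr1 was higher by 0.57 ± 0.09 (adjusted p = 0.00019) on day 3. On day 10 it was lower, at -0.25 ± 0.09 (adjusted p = 0.032). The pools of days 1, 3 and 5 lay above those of day 0 and the pools of days 10 and 14 below them. The calls of day 5 and day 10 were lost without the day 0 left pool or the day 5 left pool (adjusted p up to 0.157) and without the day 0 right pool or either day 10 pool (adjusted p up to 0.253).

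Imp4, which in yeast helps the U3 snoRNA pair with the precursor, led day 3 and was higher on all 6 days. Imp4 measured 9.85 and 9.56 on day 0, 10.56 and 10.51 on day 1, 10.77 and 10.79 on day 3, 10.53 and 10.71 on day 5, 10.72 and 10.58 on day 7, 10.28 and 10.16 on day 10 and 10.23 and 10.20 on day 14. Imp4 was higher by 0.83 ± 0.10 (adjusted p = 4.0e-05) on day 1, 1.07 ± 0.10 (adjusted p = 4.4e-06) on day 3 and 0.51 ± 0.10 (adjusted p = 0.0020) on day 14. No later pool overlapped the day 0 pools.

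Utp15, Heatr1, Wdr43 and Wdr75, parts of the early-binding subcomplex that in yeast also acts on transcription, were all higher on day 1. Their changes on day 1 were 1.13 ± 0.10 (adjusted p = 3.2e-06), 1.06 ± 0.10 (adjusted p = 4.0e-06), 0.96 ± 0.10 (adjusted p = 8.2e-06) and 0.88 ± 0.08 (adjusted p = 5.2e-06). All 4 were higher on days 1, 3 and 7, and 3 of them also on day 5, where Wdr43 was not called. Ddx10, an RNA helicase, rose by 1.14 ± 0.11 (adjusted p = 7.6e-06) on day 1 and dropped by 0.95 to day 3, the largest fall of any member in that step. The day 7 calls of Ddx10 and Wdr43 were both lost without the day 0 left pool or the day 7 right pool (adjusted p up to 0.263 and 0.105).

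Each of the 8 small subunit members called lower on day 10 or day 14 had been called higher on day 1 or day 3. How often this holds among all genes was not counted. Utp20, a large scaffold of the processome, measured 9.14 and 9.002 on day 0, 9.89 and 9.82 on day 1, 9.41 and 9.49 on day 3, 9.17 and 9.34 on day 5, 9.45 and 9.24 on day 7, 8.80 and 8.81 on day 10 and 8.91 and 8.995 on day 14. Utp20 was higher by 0.78 ± 0.09 (adjusted p = 2.9e-05) on day 1. On day 10 it was lower, at -0.27 ± 0.09 (adjusted p = 0.032), where its pools lay under both day 0 pools. Nop14, which binds the 3′ part of the precursor with Noc4l, measured 9.21 and 9.14 on day 0, 9.78 and 9.79 on day 1, 9.44 and 9.61 on day 3, 9.11 and 9.21 on day 5, 9.13 and 9.03 on day 7, 8.77 and 8.92 on day 10 and 8.94 and 8.93 on day 14. Nop14 was higher by 0.61 ± 0.08 (adjusted p = 8.2e-05) on day 1. On day 10 it was lower, at -0.33 ± 0.08 (adjusted p = 0.0062), again without overlap.

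Rcl1, which in yeast works with the GTPase Bms1 in the processome, measured 9.17 and 9.18 on day 0, 9.74 and 9.78 on day 1, 9.18 and 9.29 on day 3, 9.01 and 9.25 on day 5, 9.14 and 9.02 on day 7, 8.78 and 8.69 on day 10 and 8.81 and 8.999 on day 14. It was higher on day 1 alone, by 0.59 ± 0.10 (adjusted p = 0.00035), and lower, at -0.44 ± 0.10 (adjusted p = 0.0027) on day 10. Rrp9, which binds the U3 snoRNA, measured 9.19 and 9.13 on day 0, 9.39 and 9.43 on day 1, 9.49 and 9.50 on day 3, 9.04 and 9.25 on day 5, 9.02 and 8.89 on day 7, 8.81 and 8.77 on day 10 and 8.86 and 8.72 on day 14. Rrp9 was higher by 0.33 ± 0.08 (adjusted p = 0.0064) on day 3. On day 10 it was lower, at -0.37 ± 0.08 (adjusted p = 0.0039), with the pools of both days outside the day 0 range.

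Rrp12 and Nob1 were also called higher on day 1 and lower later. Rrp12, which in yeast takes part in the export of pre-ribosomes, measured 9.57 and 9.49 on day 0, 9.92 and 9.79 on day 1, 9.63 and 9.60 on day 3, 9.20 and 9.14 on day 5, 9.04 and 9.03 on day 7, 9.19 and 9.10 on day 10 and 9.22 and 9.33 on day 14. Rrp12 was higher by 0.32 ± 0.07 (adjusted p = 0.0031) on day 1 and lower from day 5 on, at -0.50 ± 0.07 (adjusted p = 0.00013) on day 7, and all pools from day 5 on lay below day 0. Nob1, the nuclease that makes the final cut of the small subunit RNA, measured 10.26 and 10.19 on day 0, 10.44 and 10.43 on day 1, 10.35 and 10.33 on day 3, 10.08 and 10.19 on day 5, 10.06 and 9.95 on day 7, 9.89 and 9.95 on day 10 and 9.82 and 9.93 on day 14. Nob1 was higher by 0.21 ± 0.07 (adjusted p = 0.030) on day 1. On day 14 it was lower, at -0.34 ± 0.07 (adjusted p = 0.0028). Ltv1, an export factor, was higher on day 1 alone, by 0.59 ± 0.08 (adjusted p = 9.6e-05), and lower on no day.

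Noc4l, the partner of Nop14, was not called at day 1. Noc4l measured 9.39 and 9.30 on day 0, 9.45 and 9.49 on day 1, 9.59 and 9.64 on day 3, 9.45 and 9.49 on day 5, 9.46 and 9.35 on day 7, 9.30 and 9.15 on day 10 and 9.09 and 9.14 on day 14. Noc4l was higher by 0.27 ± 0.07 (adjusted p = 0.011) on day 3. On day 14 it was lower, at -0.23 ± 0.07 (adjusted p = 0.027). Bysl, which stays on the particle until its export, was called on no single day. Bysl measured 9.22 and 9.10 on day 0, 9.26 and 9.27 on day 1, 9.34 and 9.27 on day 3, 9.32 and 9.19 on day 5, 9.20 and 9.001 on day 7, 9.18 and 9.04 on day 10 and 8.99 and 8.97 on day 14. Its largest change was -0.18 ± 0.09 (SE) on day 14, although the F test over all days called it (adjusted p = 0.0486).

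Single pools decided some of these calls. On day 1 that of Rrp9 was lost without either day 0 pool or either day 1 pool (adjusted p up to 0.118), and that of Nob1 without the day 0 left pool or either day 1 pool (adjusted p up to 0.137). On day 3 Noc4l was lost without the day 0 left pool or the day 3 left pool (adjusted p up to 0.0757). On day 7 Utp20 was lost without the day 0 left pool or the day 7 right pool (adjusted p up to 0.205) and Nob1 without the day 0 right pool or the day 7 left pool (adjusted p up to 0.119). On day 10 Utp20 was lost without the day 0 right pool or either day 10 pool (adjusted p up to 0.176) and Nop14 without the day 10 right pool (adjusted p 0.0672). On day 14 Nop14 was lost without either day 0 pool or either day 14 pool (adjusted p up to 0.151), Rcl1 without either day 0 pool, either day 10 pool or the day 14 right pool (adjusted p up to 0.233), Rrp12 without the day 0 right pool or the day 14 right pool (adjusted p up to 0.0994), Noc4l without the day 0 right pool or either day 14 pool (adjusted p up to 0.136) and Rrp9 without the day 14 left pool (adjusted p 0.0512).

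The large subunit factors were mostly higher up to day 7. Of 18 genes measured, 13 were higher on day 1 and 13 on day 3, 10 on day 5 and 10 on day 7, and 2 on day 10, while 3 were lower on day 5, 3 on day 7, 7 on day 10 and 5 on day 14. The shares called higher were 72.2%, 72.2%, 55.6%, 55.6% and 11.1% on days 1, 3, 5, 7 and 10. Of all genes 20.3%, 24.2%, 27.0%, 28.5% and 23.6% were higher on the same days. The shares called lower were 16.7% on days 5 and 7, 38.9% on day 10 and 27.8% on day 14, against 38.1%, 37.8%, 27.5% and 20.7% of all genes on days 5, 7, 10 and 14. The median change was 0.58 on day 1, 0.51 on day 3 and -0.07 on day 10.

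Gnl3, nucleostemin, a nucleolar GTPase found in stem and dividing cells, led day 1 with 1.61 ± 0.11 (adjusted p = 3.4e-07). Gnl3 measured 9.34 and 9.12 on day 0, 10.90 and 10.78 on day 1, 9.87 and 10.07 on day 3, 9.77 and 9.95 on day 5, 9.97 and 9.79 on day 7, 9.24 and 9.35 on day 10 and 9.33 and 9.39 on day 14. The day 1 pools lay over 1.4 units above both day 0 pools, and by day 3 its change was 0.74 ± 0.11 (adjusted p = 0.00013). Its pools of days 10 and 14 overlapped those of day 0.

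Rrp1b, a nucleolar protein of the large subunit precursor, led day 3 and was higher on all 6 days. Rrp1b measured 8.52 and 8.40 on day 0, 9.34 and 9.38 on day 1, 9.33 and 9.40 on day 3, 9.16 and 9.41 on day 5, 9.45 and 9.39 on day 7, 8.79 and 8.78 on day 10 and 8.65 and 8.82 on day 14. Rrp1b was higher by 0.91 ± 0.09 (adjusted p = 8.3e-06) on day 3, 0.96 ± 0.09 (adjusted p = 4.1e-06) on day 7 and 0.28 ± 0.09 (adjusted p = 0.032) on day 14, with every later pool above day 0. Its calls of day 10 and day 14 were lost without the day 0 left pool or either day 10 pool (adjusted p up to 0.0868) and without the day 0 left pool or the day 14 left pool (adjusted p up to 0.224).

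The PeBoW complex of Pes1, Bop1 and Wdr12, which is needed to process the large subunit RNA, was not called alike in its 3 members. Pes1 rose by 0.56 ± 0.10 (adjusted p = 0.00060) on day 1 and 0.70 ± 0.10 (adjusted p = 0.00010) on day 3. Bop1 rose by 0.24 ± 0.08 (adjusted p = 0.028) on day 1 and 0.69 ± 0.08 (adjusted p = 3.0e-05) on day 3, and its step between these days was 0.45 ± 0.08 (adjusted p = 0.0017). Wdr12 was not called on days 1 to 7 and was lower, at -0.50 ± 0.12 (adjusted p = 0.0048) on day 10.

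Wdr12 measured 9.51 and 9.36 on day 0, 9.67 and 9.66 on day 1, 9.38 and 9.53 on day 3, 9.14 and 9.29 on day 5, 9.38 and 9.12 on day 7, 9.02 and 8.84 on day 10 and 8.99 and 9.26 on day 14. The day 10 pools lay under both pools of day 0. A dimmer probe set of Wdr12 changed by 0.12 on day 1 and -0.65 on day 10. Bop1 lost its day 1 call without either day 0 pool or either day 1 pool (adjusted p up to 0.121) and its day 10 call without the day 0 left pool or either day 10 pool (adjusted p up to 0.0901). The difference between Wdr12 and its partners was not tested.

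Noc3l, which in yeast helps move pre-ribosomes out of the nucleolus, rose by 1.11 ± 0.10 (adjusted p = 4.4e-06) on day 1. Nop2, a methyltransferase of the large subunit RNA, rose by 0.76 ± 0.09 (adjusted p = 2.3e-05) on day 1. Ddx18 and Ddx56, both RNA helicases, rose by 0.56 ± 0.09 (adjusted p = 0.00025) and 0.46 ± 0.08 (adjusted p = 0.00082), and Wdr74, Nip7 and Nop16 by 0.74 ± 0.07 (adjusted p = 4.3e-06), 0.67 ± 0.11 (adjusted p = 0.00038) and 0.63 ± 0.08 (adjusted p = 4.5e-05). A dimmer probe set of Ddx18 gave 0.09 on day 1, 0.07 on day 3, -0.16 on day 5 and -0.15 on day 7, and was called higher on no day. On day 10 that probe set was lower, at -0.41 ± 0.10 (adjusted p = 0.0087). The calls of Ddx18 as higher thus rest on its brightest probe set alone. The calls of Nop16 were lost on day 5 without the day 5 left pool (adjusted p 0.0637) and on day 7 without either day 0 pool or the day 7 right pool (adjusted p up to 0.12).

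Gnl2, a GTPase that acts before export, measured 10.40 and 10.28 on day 0, 11.21 and 11.24 on day 1, 10.57 and 10.59 on day 3, 10.29 and 10.35 on day 5, 10.36 and 10.32 on day 7, 10.13 and 10.08 on day 10 and 10.36 and 10.25 on day 14. Gnl2 was higher by 0.89 ± 0.07 (adjusted p = 1.2e-06) on day 1. On day 10 it was lower, at -0.24 ± 0.07 (adjusted p = 0.016). Grwd1, a chaperone of ribosomal protein L3, measured 8.85 and 8.73 on day 0, 9.39 and 9.38 on day 1, 9.16 and 9.15 on day 3, 8.81 and 9.05 on day 5, 8.85 and 8.75 on day 7, 8.56 and 8.48 on day 10 and 8.50 and 8.46 on day 14. Grwd1 was higher by 0.60 ± 0.09 (adjusted p = 0.00014) on day 1. On day 14 it was lower, at -0.31 ± 0.09 (adjusted p = 0.015), also without overlap.

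Among the large subunit genes Rrs1, Ebna1bp2, Mrto4 and Nle1 were called lower and on no day higher. Rrs1, which in yeast helps bring the 5S RNA particle to the precursor, measured 7.52 and 7.65 on day 0, 7.53 and 7.80 on day 1, 7.17 and 7.75 on day 3, 7.14 and 7.09 on day 5, 7.19 and 7.03 on day 7, 6.61 and 6.79 on day 10 and 6.55 and 6.59 on day 14. It was lower, at -0.89 ± 0.16 (adjusted p = 0.00083) on day 10 and -1.01 ± 0.16 (adjusted p = 0.00044) on day 14, the largest fall of any member, and all pools from day 5 on lay under day 0. It is also the dimmest member on day 0. Ebna1bp2, a partner in large subunit assembly, measured 9.60 and 9.59 on day 0, 9.70 and 9.72 on day 1, 9.42 and 9.44 on day 3, 9.24 and 9.30 on day 5, 9.15 and 9.18 on day 7, 9.01 and 8.85 on day 10 and 9.16 and 9.20 on day 14. It was lower from day 5 on, at -0.67 ± 0.07 (adjusted p = 1.2e-05) on day 10, where its pools were 0.58 or more under day 0. Its day 1 pools lay above both day 0 pools, and that change, 0.12 ± 0.07 (adjusted p = 0.17), was not called.

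Mrto4, which holds the place of the stalk protein P0, measured 8.51 and 8.52 on day 0, 8.69 and 8.80 on day 1, 8.74 and 8.89 on day 3, 8.51 and 8.70 on day 5, 8.50 and 8.43 on day 7, 8.23 and 7.86 on day 10 and 8.12 and 8.24 on day 14. Its pools of days 1 and 3 lay above both day 0 pools, with a change of 0.30 ± 0.12 (adjusted p = 0.055) on day 3 that was not called. It was lower, at -0.47 ± 0.12 (adjusted p = 0.0063) on day 10. Nle1, which in yeast the remodelling enzyme Mdn1 pulls off the particle, measured 8.88 and 8.73 on day 0, 8.77 and 8.84 on day 1, 8.87 and 8.83 on day 3, 8.60 and 8.60 on day 5, 8.66 and 8.56 on day 7, 8.51 and 8.53 on day 10 and 8.50 and 8.48 on day 14. It was lower, at -0.29 ± 0.07 (adjusted p = 0.0064) on day 10 and -0.31 ± 0.07 (adjusted p = 0.0050) on day 14. For both genes the day 10 pools lay under both day 0 pools.

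The day 5 call of Rrs1 was lost without the day 0 left pool or either day 5 pool (adjusted p up to 0.111) and its day 7 call without the day 0 left pool or the day 7 left pool (adjusted p up to 0.114). Mrto4 lost that of day 10 without the day 10 left pool (adjusted p 0.067). The day 14 call of Mrto4 was lost without either day 0 pool, either day 7 pool or either day 14 pool (adjusted p up to 0.168). Nle1 was lost on day 5 without the day 0 right pool or either day 5 pool (adjusted p up to 0.198), on day 7 without the day 0 right pool or the day 7 left pool (adjusted p up to 0.21) and on day 10 without the day 0 right pool (adjusted p 0.059). Gnl2 was lost on day 3 without the day 0 left pool or the day 3 left pool (adjusted p up to 0.117) and on day 10 without the day 0 right pool or the day 10 left pool (adjusted p up to 0.111), and Grwd1 on day 10 without the day 0 right pool or either day 10 pool (adjusted p up to 0.138) and on day 14 without the day 0 right pool or the day 14 left pool (adjusted p up to 0.0936).

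The steps between sampled days were uneven. From day 1 to day 3, 18 members fell and 3 rose, against 13.2% and 21.5% of all genes. The falls were led by Ddx10 (-0.95 ± 0.11, adjusted p = 8.9e-05), Gnl3 (-0.87 ± 0.11, adjusted p = 0.00012), Tsr1 (-0.65 ± 0.09, adjusted p = 0.00019) and Gnl2 (-0.65 ± 0.07, adjusted p = 4.5e-05), and the rises were those of Bop1, Fbl and Nop10. In the small subunit list 10 of 16 fell in this step, and in the polymerase I list 0 of 6 were called. The 3 rises became 1 whichever pool of days 1 and 3 was left out. In the same step 5 of 8 neutrophil and 5 of 8 muscle fibre markers fell, and all 7 markers of dividing cells and all 6 of satellite cells and myoblasts rose. Macrophages and monocytes had 5 of 10 markers higher on day 3 than on day 1 and 2 lower. The part of these cells in the step was not tested.

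From day 3 to day 5, 10 members fell and 0 rose, against 11.2% of all genes called in either direction, with 1 higher at an unadjusted p under 0.05 by limma. Rrp12 had the largest of these falls, -0.45 ± 0.07 (adjusted p = 0.0036). The count of 10 became 1 without the day 3 left pool or the day 5 right pool, 3 without the day 3 right pool or the day 5 left pool, and 6 whichever pool of days 7, 10 and 14 was left out. From day 5 to day 7 no member was called by limma, with 0 higher and 2 lower at an unadjusted p under 0.05, against 1.15% of all genes.

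From day 7 to day 10, 32 members fell, against 9.52% of all genes, and Nop10 rose, against 6.95% of all genes. Nop58 fell by 0.88, Ddx21 by 0.68, Rrp1b by 0.64, Utp15 by 0.60 and Ncl by 0.59 on the log2 scale. All 4 nucleolar proteins, all 3 box C/D proteins, 11 of 18 large subunit and 10 of 16 small subunit genes were among them. The count became 10 without the day 7 right pool, 20 without the day 10 right pool and 16 without the day 10 left pool. In the same step all 7 markers of dividing cells and 9 of 10 macrophage and monocyte markers fell and all 8 muscle fibre markers rose, and their part in the members' fall was not tested. From day 10 to day 14 no member was called by limma, with 3 higher and 1 lower at an unadjusted p under 0.05, against 4.67% of all genes. With quantile normalization 1 member was higher in this step, and with a trended and robust prior 1 was lower.

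Days 10 and 14 together against days 1 and 3 together gave calls in nearly all members. Of the 51 members 49 were lower, against 19.6% of all genes, and 0 were higher, against 24.1% of all genes, by limma and also at an unadjusted p under 0.05. The median change was -0.66, against -0.01 over all genes. The largest were those of Nop58 (-1.17 ± 0.08, adjusted p = 6.2e-07), Ddx21 (-1.16 ± 0.06, adjusted p = 6.7e-08), Tsr1 (-1.10 ± 0.06, adjusted p = 7.2e-08) and Gnl3 (-1.08 ± 0.08, adjusted p = 4.9e-07). Ubtf (0.01 ± 0.05, adjusted p = 0.92) and Nop10 (-0.08 ± 0.05, adjusted p = 0.21) were not called. The count was 49 whichever single array was left out. It was also 49 with the 2 pools high in hepatocyte markers left out.

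The sampled day with the highest mean was day 1 in 35 members, day 3 in 11, day 0 in 3 and day 7 in 2. Over all genes day 1 was the highest day in 16.2% and day 0 in 40.6%. The lowest day was day 10 in 20 members, day 0 in 17, day 14 in 12 and day 7 in 2. A set of 26 members was higher on each of days 1, 3, 5 and 7, and 18 of these were not called on days 10 and 14. Both counts hold Ddx18 by its brightest probe set only, and neither was made over all genes. Higher on day 1 alone were Rrp12, Rcl1, Ltv1 and Nob1.

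The other ribosome biogenesis factors, a list of 103 measured genes that holds none of the 51, had a lower median change on day 1. Of these, 65 were higher and 6 lower on day 1, 54 and 5 on day 3, 45 and 7 on day 5, 46 and 11 on day 7, 8 and 26 on day 10, and 7 and 17 on day 14. On day 1 these are 63.1% higher and 5.83% lower, against 20.3% and 34.7% of all genes. Higher shares on days 3, 5, 7, 10 and 14 were 52.4%, 43.7%, 44.7%, 7.77% and 6.8%. Of all genes 24.2%, 27.0%, 28.5%, 23.6% and 21.4% were higher on those days. Lower shares on days 3, 5 and 7 were 4.85%, 6.8% and 10.7%, against 23.4%, 38.1% and 37.8% of all genes. The lower shares of 25.2% on day 10 and 16.5% on day 14 stand beside 27.5% and 20.7% of all genes, and are no result about the list. The median change was 0.38 on day 1 and -0.07 on day 10. In days 10 and 14 against days 1 and 3, 76 of 103 were lower (73.8%), against 19.6% of all genes.

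The highest changes of that list on day 1 were those of Utp18, a processome protein (1.39 ± 0.13, adjusted p = 4.5e-06), Mak16, in yeast part of the early large subunit particle (1.35 ± 0.11, adjusted p = 1.3e-06) and Eif6, which keeps new large subunits from joining too early (1.32 ± 0.07, adjusted p = 7.5e-08). The lowest were those of Nol7 (-0.47 ± 0.08, adjusted p = 0.00050), Wdr18 (-0.38 ± 0.08, adjusted p = 0.0022) and Tsr3, which modifies the small subunit RNA (-0.35 ± 0.09, adjusted p = 0.0066). Whether the members differ from this list was not tested.

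Myc, a transcription factor known to act on many ribosome biogenesis genes, was higher on all 6 days. Its change was 3.86 ± 0.09 (adjusted p = 2.9e-10) on day 1, 3.07 ± 0.09 (adjusted p = 1.1e-09) on day 3, 2.57 ± 0.09 (adjusted p = 2.8e-09) on day 5, 2.29 ± 0.09 (adjusted p = 4.9e-09) on day 7, 1.47 ± 0.09 (adjusted p = 1.6e-07) on day 10 and 1.18 ± 0.09 (adjusted p = 1.3e-06) on day 14. Its partner Max was higher by 0.83 ± 0.10 (adjusted p = 2.7e-05) on day 1 and was not called on days 10 and 14. Each of these changes is set against the same day 0 arrays as those of the members, so their course in time is given side by side and no relation was computed.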

How the data were processed

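RNA pools of the right and of the left plantaris were hybridised to Affymetrix Mouse Gene 1.0 ST arrays. The labels give 100 ng of RNA in 1 place and 250 ng in another. The deposited values are intensities on a linear scale, 5.9 to 29501.5, made by the authors with Partek per the submitters' processing notes, and its version, background correction and normalization are not given in the sources used here. Array medians lay between 242.8 and 254.9. No normalization was added, and no table column belonged to a sample of another series.

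Of 35556 probe sets, 21789 carried 1 gene symbol, 1621 several and 12146 none in the platform annotation used. Probe sets with several symbols were left out, and the brightest was kept for each of 999 genes with more than 1. The log2 of the intensity was fitted with limma 3.58.1 in R 4.3.3, with 1 mean per day over all 14 arrays and 7 residual degrees of freedom. The number of arrays limits the precision (median SE of a change 0.0988). Each contrast had its own Benjamini-Hochberg adjustment over 19938 genes. The code was tested on simulated data.

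Values of every array are given for the member of each role with the largest rise on day 1 and on day 3, for every member called lower on any day, and for every member called on none. Of the other factors the 3 highest and 3 lowest on day 1 are named, and of further lists up to 3 with the largest changes. The member list uses no threshold on a change, but the members and lists were chosen with earlier results of these data known. Promoter sequences are from RefSeq (GRCm38.p6) and were matched by gene identifier for 45 members. Alternatives were other scalings, probe set rules, priors and sets of arrays.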

Additional observations from a re-analysis of the deposited data

Results flagged for a closer look

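In 7 members the direction on day 14 was opposite to that on day 1, each past the threshold against day 0. The same pattern was not counted over all genes. The mean of days 10 and 14 minus the mean of days 1 and 3 was -0.80 in Dkc1, -0.76 in Nop14, -0.66 in Rrp9, -0.53 in Rrp12, -0.68 in Rcl1, -0.49 in Nob1 and -0.77 in Grwd1, and limma called each of these differences. Leaving out 1 pool ended the day 1 call of Nob1 and Rrp9 and the day 14 call of Nop14, Rrp9, Rrp12, Rcl1 and Grwd1, with adjusted p-values up to 0.137, 0.118, 0.151, 0.0512, 0.0994, 0.233 and 0.0936 in that order. For Dkc1 both calls held in each of these, but without the left day 0 and right day 1 pools together its day 1 call was lost (adjusted p = 0.123).

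Probe sets outside the comparisons also carried signal. Npm1 lay on 3 probe sets that the annotation shares with other symbols, and they changed by 1.09, 1.07 and 1.08 on day 1. A dimmer Fbl probe set changed by 0.85 on day 3. The probe set that Ppan shares with another symbol changed by 1.10 on day 1.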

How the results depend on the processing

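Against day 0, no called change of a member and no median of the members reversed its direction under the alternatives. Reversals were not looked for in the steps or in days 10 and 14 against days 1 and 3. The median of all genes changed sign on days 5, 7 and 14 (0.013, 0.026 and 0.0029) without the dimmest genes. Of 193 calls of a member on a day, 144 stayed past the threshold without each single array and 49 did not. With single arrays left out, members called higher and lower ranged over 37 to 41 and 1 to 1 on day 1, 33 to 37 and 0 to 1 on day 3, 23 to 29 and 3 to 6 on day 5, 24 to 29 and 3 to 8 on day 7, 2 to 7 and 13 to 19 on day 10, and 2 to 6 and 8 to 15 on day 14. The step from day 1 to 3 gave 1 to 4 and 14 to 19, from day 3 to 5 0 and 1 to 12, from day 7 to 10 0 to 1 and 10 to 33, and the late against early days 0 and 49. The F test called 49 to 51. Medians ranged from 0.59 to 0.66 on day 1, 0.39 to 0.52 on day 3, 0.19 to 0.32 on day 5, 0.24 to 0.38 on day 7, -0.15 to -0.015 on day 10 and -0.13 to -0.0089 on day 14.

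Asking for a change over 1.5-fold (treat) left 14 higher and 0 lower on day 1, 7 higher on day 3, 3 and 0 on day 5, 4 and 0 on day 7, 0 and 0 on days 10 and 14, 0 in each step and 9 lower late against early. Quantile normalization gave 1 lower on day 3, 13 lower on day 7, 3 higher on day 14, 17 lower from day 3 to 5 and 1 higher from day 10 to 14, with medians of 0.51, 0.40, 0.18, 0.21, -0.16 and -0.12 by day. Equal medians gave 1 lower on day 3, 3 higher on day 14 and 1 higher from day 1 to 3. Of all 19938 genes, quantile normalization called 5127 lower on day 3 and equal medians 4982. The mean of a gene's probe sets gave a median of 0.41 on day 3. A fit of the compared arrays only gave 2 higher on day 14, 1 higher from day 1 to 3, 2 lower from day 3 to 5 and 0 higher from day 7 to 10. A trended and robust prior gave 1 lower on day 3 and 1 lower from day 10 to 14. Without the dimmest genes 2 were lower on day 3 and 1 higher from day 10 to 14. Without both pools high in hepatocyte markers 3 were higher on day 10, 2 on day 14 and 1 from day 1 to 3, with medians of 0.39, 0.19, 0.24, -0.15 and -0.13 on days 3 to 14. The cause of these differences was not tested.

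The difference between the right and the left pool of a day was correlated between days, and the correlation lay between -0.58 and 0.44 with a median of -0.06. This looks at whether a side difference repeats from day to day. It cannot tell whether the right and left pools of a day share their animals. With side as a replicate block 41 members were higher and 1 lower on day 1, 36 and 0 on day 3, 29 and 5 on day 5, 29 and 7 on day 7, 5 and 19 on day 10, 4 and 14 on day 14, and 49 lower late against early. The block gave 3 higher and 17 lower from day 1 to 3, 7 lower from day 3 to 5 and 27 lower from day 7 to 10.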

Other observations

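Among 11 genes of the Myc network, 5 were higher and 5 lower on day 1, which is 45.5% each, against 20.3% and 34.7% of all genes. After Myc, Mxd1, which competes with Myc for Max, had the largest changes on days 1 and 3. It changed by 2.89 ± 0.14 (adjusted p = 3.4e-08) on day 1 and 0.92 ± 0.14 (adjusted p = 0.00018) on day 3. Next in size came Max on day 1, 0.83 ± 0.10 (adjusted p = 2.7e-05), and Mxi1 on day 3, -0.62 ± 0.10 (adjusted p = 0.00021). Mxi1, a relative of Mxd1, was lower on all 6 days, at -0.27 ± 0.10 (adjusted p = 0.033) on day 1 and -0.83 ± 0.10 (adjusted p = 1.8e-05) on day 7.

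Of 5 host genes of small nucleolar RNAs, whose introns hold the guide RNAs that the box C/D and H/ACA proteins carry, 3 were higher on day 1, against 20.3% of all genes. Snhg5 changed by 1.19 ± 0.12 (adjusted p = 8.8e-06), Gas5 by 0.76 ± 0.11 (adjusted p = 0.00016) and Snhg16 by 0.71 ± 0.14 (adjusted p = 0.00099) on that day.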
